A study of Anolis carolinensis with 15 samples.

Results

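Regenerating tails of control lizards at D21 were compared with regenerating tails at D14 in the green anole, *Anolis carolinensis*, by bulk RNA-seq of sorted fibroblasts. Of the 15 libraries in the series, 6 were used, namely the 3 PBS D21 libraries (PBS A, B and C) and the 3 D14 libraries (D14 A, B and C). They were taken from the titles of the libraries, and the day of the PBS libraries came from the design text of the series. The comparison covers the 20589 genes, of 26523 in the files, that reached 10 counts in 3 or more of these libraries.

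PBS D21 lizards received intraperitoneal injections of phosphate-buffered saline, the vehicle of a zoledronic acid (ZA) experiment, starting in the week before amputation and continuing until collection at D21 (3 times per week for ZA). D14 lizards belonged to a time course with D7 and D28, and no injection is given for them. Lizards of the study were 9 to 12 months of age, of both sexes and without a transgene or mutation. In both groups the tail had been amputated, and tissue labelled as whole tail was digested, fixed, labelled with fluorescent RNA probes and sorted. The gate of the PBS libraries is given as *col3a1*+/*krt5*-, whereas the time course is described as sorted on *col3a1*, with the *krt5* gate given both ways. The treatment entry of PBS A says that none applied, and its title was followed. The groups therefore come from 2 experiments and differ by 7 days of regrowth, by injection and by experiment, and these cannot be told apart. The study also states that 1 D14 sample was sequenced earlier than the other time course samples, without saying which.

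The regrowing lizard tail replaces the lost vertebrae with an unsegmented cartilage tube that surrounds a regenerated ependymal tube. It forms from the blastema, a mound of proliferating mesenchymal cells under a wound epidermis. Hyaline cartilage matrix is built of thin fibrils of collagen II, with collagens IX and XI on and inside them, filled with aggrecan that is anchored to hyaluronan by link protein. Sox9, together with Sox5 and Sox6, is the central transcriptional regulator of chondrocyte genes in mammals, and hedgehog signals from the ependymal tube are known to induce cartilage in the lizard tail.

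Library totals ranged from 6310232 to 11329947 counts in PBS D21 and from 11043456 to 12699682 in D14. The number of genes with at least 1 count was 19909 to 20525 in PBS D21 and 24881 to 24900 in D14, and at an equal total of 6310232 counts it was 19717 to 20525 against 24219 to 24356. PBS libraries also differed more among themselves, with a median SD of 0.73 in log2 normalized counts across genes, against 0.29 in D14. Spearman correlations were 0.8609 to 0.8715 between PBS libraries and 0.9577 to 0.9726 between D14 libraries. Between a PBS and a D14 library they were 0.8792 to 0.898, so PBS libraries resembled each other less than they resembled D14 libraries. PBS A had only 641 genes at 1 to 3 counts (1470 and 1520 in PBS B and C, 1838 to 1939 in D14), and small nuclear RNA (snRNA) genes held 0.439% of its counts, against 0.0526% and 0.105% in PBS B and C and 0.127% to 0.264% in D14. Of 14 fibroblast markers tested, *col3a1* among them, 13 had a positive log2 fold change (51.3% of all genes). No defining marker was at 0 throughout either group. The summed normalized count of the list, most of it from collagen genes, was 563640, 213680 and 557720 in PBS A, B and C and 107080 to 128380 in D14. In 9 markers every PBS library was above every D14 library (8.23% of all genes). *pdgfra*, *twist1* and *thy1*, chosen after their values were seen, had log2 fold changes of 0.14, 0.38 and -1.49 with overlapping groups. *col3a1* itself, the gene used for the sort, had normalized counts of 111257, 36036 and 102740 in PBS A, B and C, against 18420, 18227 and 18704 in D14. As the sort gene it is given as a description only.

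Across all genes, 16 were called higher in PBS D21 (0.0777% of genes tested) and 13 were called lower (0.0631%). A call required an adjusted p under 0.05 by edgeR's quasi-likelihood test and a log2 fold change beyond 2, a fold of 4. In either direction this was 0.141% of genes. The log2 fold changes of all genes had a median of 0.02 and 51.3% of them were positive, and an unadjusted p under 0.05 was reached by 5.49% of genes with higher and 6.28% with lower values in PBS D21. Without regard to the test, 1695 genes (8.23%) had every PBS library above every D14 library and 2751 (13.4%) had every PBS library below. The calls depend on which libraries are included. Without PBS C, and without D14 A, B or C, edgeR called no gene (lowest adjusted p 0.0560, 0.0906, 0.0832 and 0.0941), although 3337, 932, 1178 and 935 genes had an unadjusted p under 0.05. Without PBS B it called 46 higher and 14 lower, 23 of the 29 calls among them, and without PBS A 12 higher and 17 lower, with 17 of the 29. On all 6 libraries DESeq2 called 129 higher and 257 lower, so that 33.4% of its calls were higher against 55.2% in edgeR, and limma-voom called 14 higher and 1 lower. All 29 genes were among the DESeq2 calls, but limma-voom called only 12 of them, with 1 of the 13 lower calls. A fit over all 15 libraries called 20 of the 29. Each of the 29 kept its direction under every alternative that tested it, although 6 of them were not tested when a D14 library was left out.

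The genes called higher were led by the matrix of hyaline cartilage. *col2a1*, which encodes the chain of the main cartilage fibril, had normalized counts of 159153, 17983 and 97079 in PBS A, B and C, against 901, 1889 and 1188 in D14 A, B and C. PBS B was the lowest of the PBS libraries and still stood above every D14 library. The log2 fold change was 6.11 ± 0.84 (SE) with an adjusted p of 0.0399, and it was 5.42 without PBS A. The gene lies on chromosome 2 (206480399 to 206581625, rAnoCar3.1.pri) and shares 1652 bases with LOC100554192, a protein-coding gene with a log2 fold change of 0.26. In bulk RNA of sorted cells, more cells of a type and more RNA per cell cannot be told apart.

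*col9a1* and *col9a2*, 2 chains of the collagen that decorates this fibril, were also called higher. *col9a1* (chromosome 1, 124219827 to 124341702) had 8853, 1764 and 8924 in PBS A, B and C, against 203, 270 and 351 in D14, a log2 fold change of 4.57 ± 0.62 (adjusted p = 0.0366). *col9a2*, which is not placed on a chromosome, had 14991, 3308 and 10177 in PBS A, B and C, against 454, 518 and 721 in D14, a log2 fold change of 4.07 ± 0.55 (adjusted p = 0.0366). *acan*, the gene of aggrecan, had 6071, 1760 and 6383 in PBS A, B and C, against 240, 279 and 252 in D14, a log2 fold change of 4.20 ± 0.49 (adjusted p = 0.0270). In each of these genes PBS B was the lowest PBS library, and no PBS library overlapped with a D14 library. A lncRNA that overlaps *col9a1*, LOC134299395, had at most 128 normalized counts in any of the 6 libraries.

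**Figure D1:**
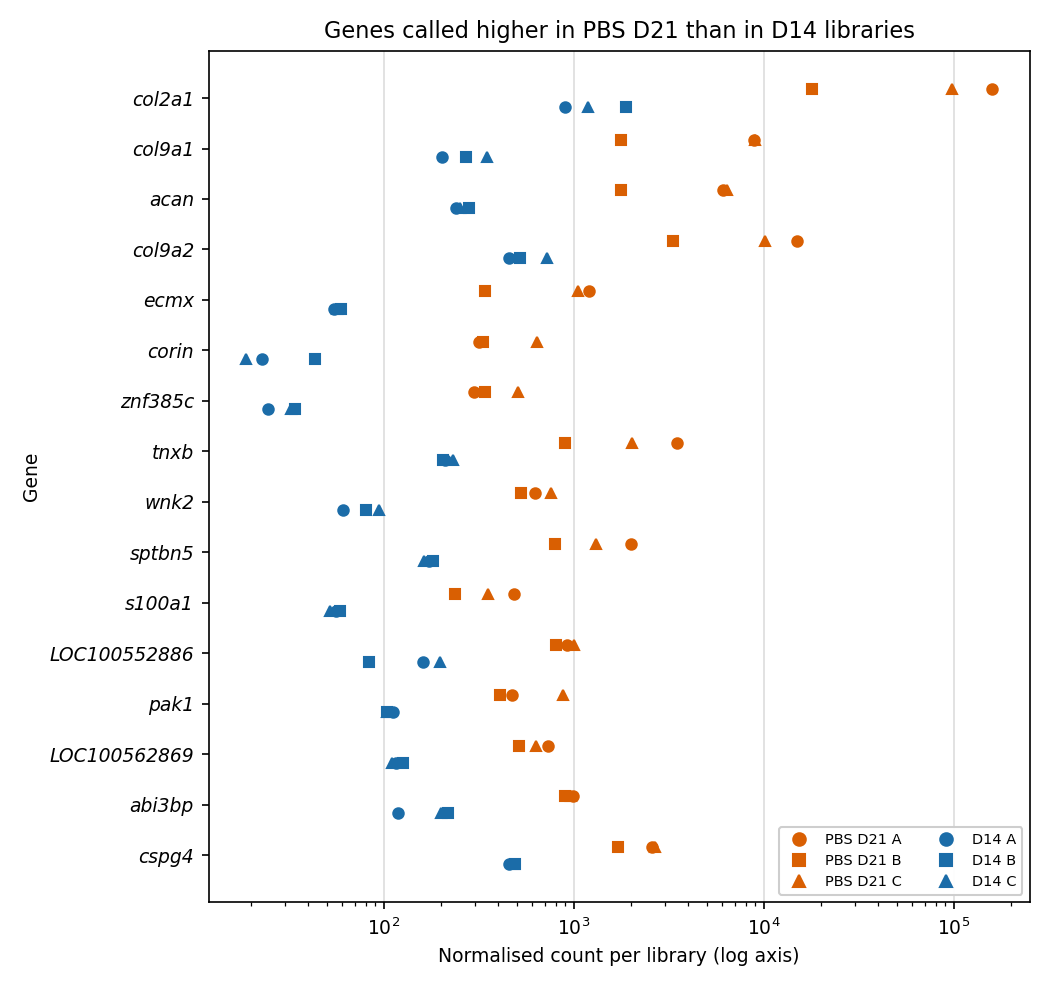
Normalized counts per library (log axis) of the 16 genes called higher, with PBS D21 libraries in orange above D14 libraries in blue for each gene, and one marker shape per library letter. No PBS library overlaps with a D14 library in any gene, and PBS B is the lowest PBS library of *col2a1*, at 17983.

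Of the 23 cartilage matrix genes listed, 21 were in the files and 18 were tested. Besides the 4 called higher (0.0777% of all genes), none was called lower and 16 had a positive log2 fold change (51.3% of all genes). Every PBS library was above every D14 library in 11 (8.23% of all genes), and the median was 2.93 beside 0.02 over all genes. Several members lay just outside the threshold and, apart from *col11a1*, which the text of the study names, were chosen after their values were seen. *col11a2*, a chain of the collagen at the core of the fibril, had 143722, 10867 and 29384 in PBS A, B and C, against 983, 893 and 886 in D14 (log2 fold change 6.06, adjusted p = 0.0607), and the log2 fold change was 4.43 without PBS A. *col9a3*, the remaining collagen IX chain, had 7021, 1133 and 7653 in PBS D21, against 110, 216 and 255 in D14 (4.76, adjusted p = 0.0524). *hapln1*, the link protein, had 767, 337 and 1327 in PBS D21, against 64.6, 88.6 and 90.4 in D14 (3.32, adjusted p = 0.0524). *col11a1* had 53105, 14673 and 48083 in PBS D21, against 3666, 3478 and 4738 in D14 (3.29, adjusted p = 0.0602).

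Smaller cartilage components followed without passing the test. *matn4*, a matrilin, had a log2 fold change of 2.58 (adjusted p = 0.0607), and *chad*, the collagen-binding chondroadherin, had one of 2.04 (adjusted p = 0.160). For *cnmd*, the antiangiogenic chondromodulin, counts were 234, 66.6 and 190 in PBS D21, against 17.3, 20.0 and 10.2 in D14 (3.35, adjusted p = 0.103). *matn1* had a log2 fold change of 1.97, and its groups overlapped, since PBS B at 35.2 lay below D14 B at 47.8. *comp*, a pentameric matrix protein shared by cartilage and tendon, had 2327, 1568 and 1377 in PBS D21, against 1998, 1541 and 1952 in D14 (-0.06, adjusted p = 0.962), so that the groups overlapped throughout. These 5 genes were also chosen after their values were seen. Of 3 members that did not pass the count filter, *epyc*, *otor* and *snorc*, no change is given.

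The transcriptional regulators of cartilage held no call. None of 17 tested members passed in either direction, 11 log2 fold changes were positive and the median was 0.23 (0.05 when only library size was scaled). *sox5*, chosen after its values were seen, had 2464, 1599 and 2679 in PBS A, B and C, against 438, 499 and 697 in D14, a log2 fold change of 2.04 ± 0.31 (adjusted p = 0.0524). Its partner *sox6* had 1388, 1343 and 2236 in PBS D21, against 474, 695 and 863 in D14 (1.29, adjusted p = 0.164), again without overlap. *sox9* had 1730, 1303 and 2310 in PBS D21, against 2045, 1493 and 1918 in D14 (-0.03, adjusted p = 0.981), and the groups overlapped. *foxc2*, a forkhead factor of sclerotome mesenchyme, had a log2 fold change of 1.77 (adjusted p = 0.156), and *pax1*, a sclerotome factor, had one of -1.34 (adjusted p = 0.455). *sox6*, *sox9*, *foxc2* and *pax1* were chosen after their values were seen, whereas the members of highest mean count, such as *trps1* at 0.28 (adjusted p = 0.733), overlapped between groups.

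Hypertrophy and mineralization genes showed no call among 14 tested (10 positive, median 0.49, 4 with every PBS library above D14, beside 8.23% of all genes). *col10a1*, the collagen of hypertrophic chondrocytes, had 147, 153 and 213 in PBS A, B and C, against 50.4, 48.5 and 60.6 in D14 (1.68, adjusted p = 0.156). *enpp1*, which makes the mineralization inhibitor pyrophosphate, had 825, 206 and 357 in PBS D21, against 110, 117 and 91.3 in D14 (2.12, adjusted p = 0.156), and 1.38 without PBS A. *pth1r*, the receptor of parathyroid hormone-related protein, had a log2 fold change of 1.30 (adjusted p = 0.209). In the other direction, *sp7* and *ibsp*, 2 osteoblast genes, had -1.24 and -1.55 (adjusted p = 0.499 and 0.647) with overlapping groups. *spp1*, osteopontin, had 816, 3389 and 4238 in PBS A, B and C, against 2734, 4055 and 3430 in D14 (-0.28, adjusted p = 0.885), and PBS A alone lay below every D14 library. Without PBS A its log2 fold change was 0.14. Genes of this paragraph other than *spp1* were chosen after their values were seen.

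The remaining genes called higher were not collagens. *tnxb*, tenascin X, a glycoprotein that associates with collagen fibrils in loose connective tissue, had 3467, 892 and 2022 in PBS A, B and C, against 210, 203 and 232 in D14 (3.31 ± 0.46, adjusted p = 0.0426). *ecmx* had 1206, 340 and 1052 in PBS D21, against 54.4, 59.3 and 56.3 in D14 (3.93 ± 0.48, adjusted p = 0.0270). *cspg4*, the NG2 proteoglycan of pericytes and progenitor cells, had 2576, 1701 and 2655 in PBS D21, against 455, 488 and 485 in D14 (2.28 ± 0.27, adjusted p = 0.0270). These 3 genes had no overlap between groups, and the D14 libraries lay close together in each. *abi3bp*, a matrix-binding protein chosen after its values were seen, had 991, 900 and 962 in PBS D21, against 118, 218 and 199 in D14 (2.41, adjusted p = 0.0270).

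A second set of called genes encodes proteins inside the cell or at its surface. *corin*, a membrane protease known for activating atrial natriuretic peptide, had 316, 333 and 638 in PBS A, B and C, against 22.8, 43.1 and 18.8 in D14 (3.91 ± 0.48, adjusted p = 0.0270). *znf385c*, a zinc finger protein, had 299, 341 and 509 in PBS D21, against 24.4, 33.9 and 32.4 in D14 (3.66, adjusted p = 0.0212). *wnk2*, a kinase of the WNK family, had 627, 527 and 754 in PBS D21, against 60.7, 80.1 and 94.7 in D14 (3.02, adjusted p = 0.0212). In *corin* and *znf385c* PBS A was the lowest PBS library, unlike in the cartilage collagens. *sptbn5*, a beta spectrin of the membrane skeleton, had 1984, 798 and 1313 in PBS D21, against 173, 181 and 163 in D14 (2.99, adjusted p = 0.0270). *s100a1*, a calcium-binding protein, and *pak1*, a kinase downstream of Rac and Cdc42, had log2 fold changes of 2.69 and 2.46, at adjusted p of 0.0426 and 0.0499. *pak1* had the adjusted p nearest the threshold among the calls, with 471, 407 and 880 in PBS D21, against 111, 104 and 104 in D14. The 2 genes without a name, LOC100552886 and LOC100562869, are annotated as protein coding and had 2.62 and 2.42.

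The series allows the same genes to be seen in the other groups, in 1 fit over 15 libraries in which the contrasts share the D14 libraries by which these genes were called. The values are therefore a description. For the 16 genes called higher, log2 differences from D14 were 2.27 to 6.09 at PBS D21, -2.26 to 1.67 at ZA D21 and 2.02 to 5.13 at D28. No p-value is given for these contrasts, because each uses the D14 libraries by which the genes were called. ZA D21 was the other arm of the injection experiment, collected on the same day as PBS D21. ZA minus PBS shares the PBS libraries by which the genes were called and is given with no test, at -6.19 to -0.99 over the 16 genes, with -6.19 for *col2a1*, -4.98 for *acan* and -6.17 for *ecmx*. At D28 library A stood apart from B and C, and without it the D28 range was 2.48 to 5.15. In 6 of the 16 genes, among them *cspg4*, *tnxb*, *sptbn5* and *abi3bp*, every D7 library was also above every D14 library. All 16 were called on low D14 values, and the share of all genes with this order is not given. For *cspg4* normalized counts on this scale were 1060 to 1411 at D7, 395 to 427 at D14, 1510 to 2262 at PBS D21 and 2099 to 3436 at D28. The cartilage collagens did not share that pattern, and *col2a1* ran from 161 to 3503 at D7 and from 784 to 1654 at D14.

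**Figure D2:**
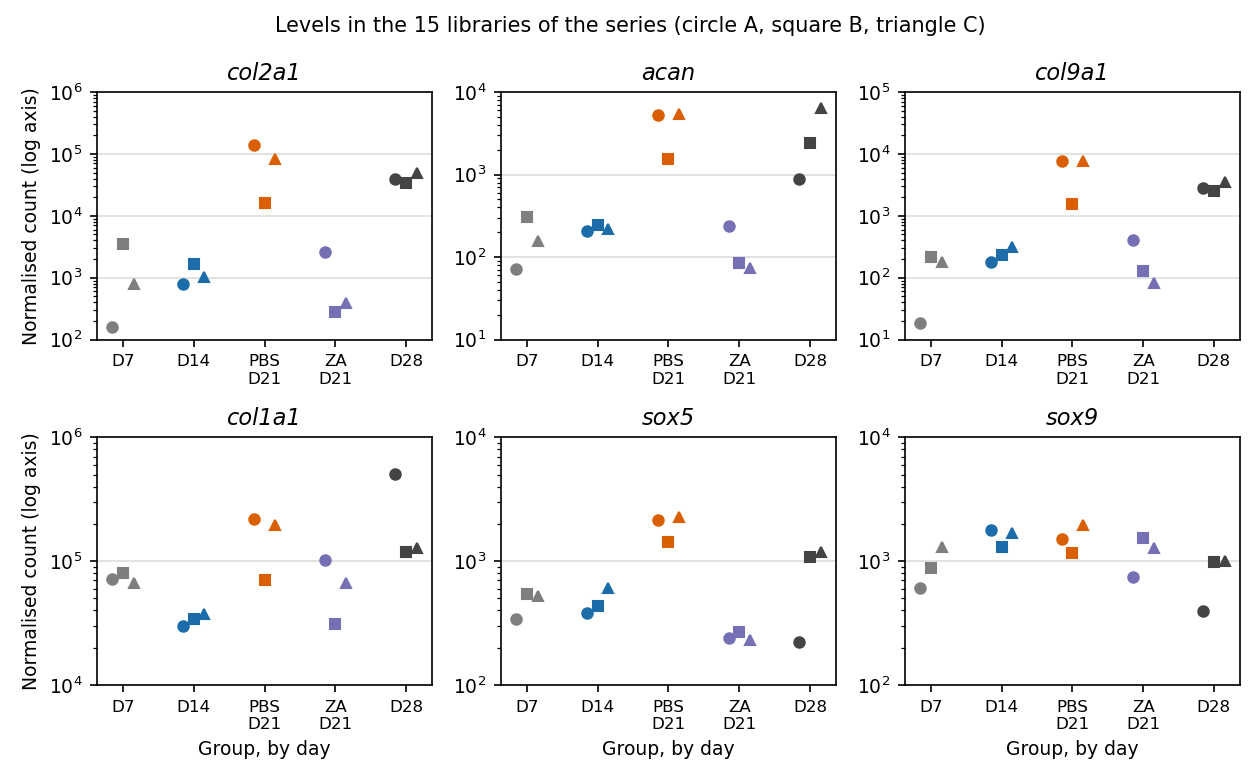
Normalized counts (log axis) in all 15 libraries, ordered by day, for 3 called genes (*col2a1*, *acan*, *col9a1*) and for *col1a1*, *sox5* and *sox9*, with one marker shape per library letter. The 3 called genes are high in PBS D21 and D28 and low in D7, D14 and ZA D21, whereas *sox9* overlaps between PBS D21 and D14.

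Collagens outside the cartilage fibril had no call, but 14 of 16 tested had every PBS library above every D14 library (8.23% of all genes) and the median log2 fold change was 1.43. *col1a1*, a chain of the main fibril of bone, tendon and dermis, had 253011, 78889 and 227851 in PBS A, B and C, against 34577, 38865 and 42697 in D14 (2.27 ± 0.52, adjusted p = 0.156). *col1a2* had 109298, 48972 and 147242 in PBS D21, against 23533, 23290 and 27998 in D14 (2.03 ± 0.47, adjusted p = 0.156). PBS B was again the lowest of the PBS libraries. *col24a1* and *col15a1*, chosen after their values were seen, had 2.10 and 2.02 (adjusted p = 0.0775 and 0.0672).

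Of 32 matricellular and elastic fibre genes, 1 (*tnxb*) was called higher (0.0777% of all genes) and none lower. A positive log2 fold change was found in 25 (51.3% of all genes), and the median was 0.76. Every PBS library was above every D14 library in 18 (8.23% of all genes) and below in 2 (13.4% of all genes). *tnc* and *fn1*, tenascin C and fibronectin, which are known from provisional and blastema matrix, had -0.37 (groups overlapping) and 0.52 (no overlap), with adjusted p of 0.711 and 0.551. *tnc* had 12931, 19463 and 13481 in PBS A, B and C, against 20868, 16458 and 21975 in D14. Chosen after their values were seen, *loxl4*, a lysyl oxidase that crosslinks matrix, had 2.63 (adjusted p = 0.0551), *eln*, elastin, had 2.33 (0.118, and 1.64 without PBS A), *fbn2*, fibrillin 2, had 2.08 (0.0748) and *postn*, periostin, had 1.83 (0.0524). *loxl4* had 1473, 575 and 1408 in PBS D21, against 169, 149 and 239 in D14. *tnn*, another tenascin, had 9, 4 and 2 raw counts in PBS D21, against 42, 42 and 48 in D14 (-2.49, adjusted p = 0.283). It passed the count filter through the D14 libraries alone.

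Small leucine-rich proteoglycans, which bind collagen fibrils and set their diameter, had no call among 12 tested, 11 positive log2 fold changes and a median of 1.56. *prelp* had 936, 780 and 1686 in PBS A, B and C, against 187, 405 and 235 in D14 (2.04, adjusted p = 0.122), and *dcn*, decorin, had 0.92 with overlapping groups. Enzymes and chaperones of collagen processing were positive in 22 of 23 with a median of 0.77, and *plod2*, a lysyl hydroxylase chosen after its values were seen, had 1.62 (adjusted p = 0.138). None of these 23 was called.

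Matrix proteases and their inhibitors had no call among 26 tested, with 16 positive and 10 negative log2 fold changes. *mmp9*, a gelatinase of leukocytes, osteoclasts and wound epidermis, had 145, 152 and 384 in PBS A, B and C, against 602, 820 and 847 in D14 (-1.74 ± 0.41, adjusted p = 0.160). It was the only 1 of the 26 with every PBS library below every D14 library, a share lower than the 13.4% of all genes. In the other direction, 8 had every PBS library above every D14 library (8.23% of all genes). *adamts4*, an aggrecan-cleaving protease, had -0.24 with overlapping groups (adjusted p = 0.814). *adamts15* and *timp2*, a protease and an inhibitor chosen after their values were seen, had 2.41 and 1.52 (adjusted p = 0.0655 and 0.138) without overlap.

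**Figure D3:**
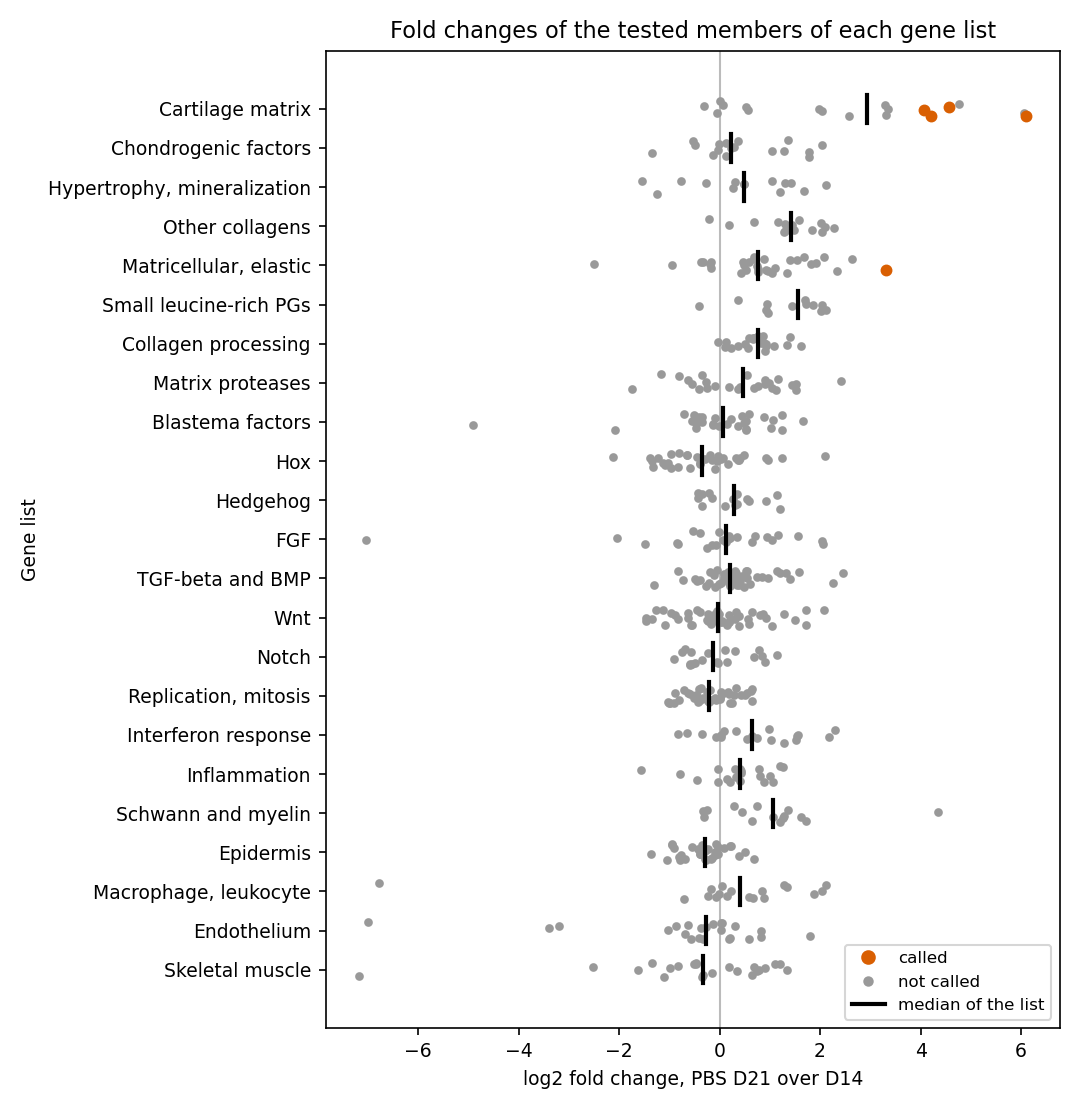
Log2 fold change of PBS D21 over D14 for the tested members of 23 gene lists, with called genes in orange, other members in grey and a black bar at the median of each list. The cartilage matrix list has the median of 2.93 and 4 called members, while blastema factors, FGF, Wnt and Notch lists lie around 0.

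No signalling list held a called gene. For hedgehog, 10 of 16 log2 fold changes were positive (median 0.29), and *gas1*, a coreceptor, had 0.55 with overlapping groups (adjusted p = 0.596). *ptch1*, receptor and target gene of the pathway, had 1610, 1146 and 1233 in PBS A, B and C, against 713, 565 and 823 in D14 (0.92, adjusted p = 0.179). The ligand *ihh* had 31.2, 54.1 and 55.6 in PBS D21, against 18.9, 14.6 and 27.3 in D14 (1.21, adjusted p = 0.539). Neither gene overlapped between groups, and both were chosen after their values were seen, as was *cdon*, another coreceptor, at 1.15 (adjusted p = 0.183).

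In the FGF list 14 of 25 were positive and the median of 0.13 turned to -0.07 when only library size was scaled. *fgfr1*, the receptor with one of the 2 highest means of the list, had 1449, 908 and 2108 in PBS A, B and C, against 491, 437 and 586 in D14 (1.56 ± 0.33, adjusted p = 0.138). *fgfrl1*, a receptor without a kinase domain, and the ligand *fgf18*, known from cartilage growth in mammals, had 2.05 each (adjusted p = 0.164 and 0.264). *fgf19* had 0 counts in all PBS libraries, against 23, 14 and 23 counts in D14. With 0 read as 3 counts over the group, its level was at least 12.3-fold lower in PBS D21. It passed the count filter through the D14 libraries alone, so it entered the test only because its D14 counts were high. These last 3 genes were chosen after their values were seen.

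For TGF-beta and BMP, 36 of 49 were positive (median 0.21, and -0.01 when only library size was scaled). *smad3*, which transduces TGF-beta, had 0.29 with overlapping groups. *tgfb3* had 1640, 1046 and 1224 in PBS A, B and C, against 541, 404 and 534 in D14 (1.40, adjusted p = 0.118), and *bmpr1b*, a BMP receptor needed for digit cartilage in mouse, had 123, 253 and 252 in PBS D21, against 34.7, 37.0 and 58.9 in D14 (2.26, adjusted p = 0.135). *ltbp4*, which holds latent TGF-beta in the matrix, had 2466, 738 and 612 in PBS D21, against 235, 241 and 218 in D14 (2.46, adjusted p = 0.138), and 1.52 without PBS A. These 3 genes were chosen after their values were seen. In the Wnt list 23 were positive and 27 negative. *sfrp2*, a secreted Wnt modulator, had 5190, 2774 and 5426 in PBS D21, against 1301, 2096 and 1307 in D14 (1.51, adjusted p = 0.156), and *wnt3a*, a ligand chosen after its values were seen, had 82.5, 172 and 16.4 in PBS D21, against 243, 218 and 193 in D14 (-1.26, adjusted p = 0.503).

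Transcription factors of blastema mesenchyme were split, with 15 positive and 15 negative log2 fold changes. *meis1*, a homeobox factor of limb patterning, had 0.44 and its groups overlapped. *ebf1*, chosen after its values were seen, had 1025, 1616 and 1076 in PBS A, B and C, against 383, 327 and 468 in D14 (1.66, adjusted p = 0.0775), whereas *hand2*, also so chosen, had 21.2, 22.6 and 34.3 in PBS D21, against 121, 88.6 and 121 in D14 (-2.08, adjusted p = 0.160). Hox genes, which mark position along the body axis, were negative in 25 of 37 (median -0.35), and 13 had every PBS library below every D14 library (13.4% of all genes) while 3 had every one above, a share like the 8.23% of all genes. *hoxb13*, which marks the posterior end of the axis, had 361, 213 and 404 in PBS D21, against 84.3, 60.8 and 82.8 in D14 (2.10, adjusted p = 0.0945). *hoxc10* had 87.0, 436 and 245 in PBS D21, against 662, 600 and 681 in D14 (-1.34, adjusted p = 0.317). Both were chosen after their values were seen, and *hoxc13*, the Hox gene of highest mean, had 0.40 with overlapping groups. Genes of DNA replication and mitosis had 16 positive and 25 negative values between -1.02 and 0.66. *mki67*, the member of highest mean, had 543, 1811 and 1893 in PBS A, B and C, against 1312 to 1477 in D14 (0.008, adjusted p = 0.996). PBS A thus lay below every D14 library, and PBS B and C lay above. *pole*, the catalytic subunit of polymerase epsilon, had -0.40 (adjusted p = 0.661). Both overlapped between groups. No gene was called among Notch, contractile, ribosomal protein, nuclear respiration, glycolysis or heat shock genes. Log2 fold changes were positive in 8 of 20 Notch genes, 5 of 12 contractile genes of myofibroblasts and 59 of 69 ribosomal protein genes, the last with a median of 0.34 (0.10 when only library size was scaled). They were positive in 18 of 25 respiration, 12 of 18 glycolysis and 12 of 22 heat shock genes, with medians of 0.19, 0.20 and 0.01 that turned negative when only library size was scaled.

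Markers of other cell types were examined because the sort may hold them. Of 15 Schwann and myelin genes 12 were positive and 7 had every PBS library above every D14 library (51.3% and 8.23% of all genes), with a median of 1.07 and no call. The summed normalized count of the list was 8514, 6280 and 6394 in PBS A, B and C, against 5068 to 5898 in D14. *mpz*, myelin protein zero, chosen after its values were seen, had 2383, 187 and 324 in PBS A, B and C, against 33.9, 55.5 and 52.9 in D14 (4.35 ± 0.92, adjusted p = 0.138), with PBS A far above the others and 2.40 without it. *sox10*, which marks neural crest and is also expressed in Schwann cells, had 151, 251 and 357 in PBS D21, against 113, 118 and 131 in D14 (1.07, adjusted p = 0.311). *erbb3*, the Schwann cell receptor of neuregulin, had -0.31 with overlapping groups.

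Epidermal genes were negative in 28 of 34 (median -0.29), with none called and 4 with every PBS library below every D14 library, a share no higher than the 13.4% of all genes. Their summed normalized count was 81983, 107990 and 42584 in PBS A, B and C, against 77398 to 111660 in D14, so that PBS C was lowest and the groups overlapped. *dsp*, desmoplakin, had -0.54, and *foxn1*, an epidermal differentiation factor, had 535, 516 and 211 in PBS D21, against 936, 790 and 704 in D14 (-0.94, adjusted p = 0.342). Desmosomal RNA was thus counted in both groups, and its part in the other results was not tested. *krt5* was not analysed here. Macrophage and leukocyte genes summed to 3432, 1865 and 1214 in PBS A, B and C, against 1229 to 1718 in D14. *c1qa*, a complement gene of macrophages chosen after its values were seen, had 741, 74.2 and 26.2 in PBS A, B and C, against 67.8, 72.4 and 89.6 in D14, and its log2 fold change of 1.88 became -0.62 without PBS A. Pigment cell, osteoclast, erythrocyte, endothelium, skeletal muscle, neural and adipocyte lists held no called gene, with medians between -0.47 and 0.27. The neural median of 0.27 fell to 0.08 when only library size was scaled. Of 16 neural genes 9 were positive, but 5 had every PBS library below every D14 library (13.4% of all genes). Apart from *tubb3*, at -0.94, these were under 10 counts in every PBS library and passed the count filter through the D14 libraries alone.

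Interferon response genes, which respond to viral RNA and cytokines, had 15 positive of 19 and 9 with every PBS library above every D14 library, beside 51.3% and 8.23% of all genes (median 0.64, no call). *isg15*, chosen after its values were seen, had 493, 391 and 232 in PBS A, B and C, against 81.9, 70.1 and 75.1 in D14 (2.30 ± 0.37, adjusted p = 0.0663). *adar*, the member of highest mean, had 0.32 with overlapping groups. Inflammation genes had 16 positive of 21 and no call (median 0.41). *socs3*, a feedback inhibitor of cytokine signalling, had 5517, 5841 and 5238 in PBS D21, against 5155, 2950 and 5285 in D14 (0.31, adjusted p = 0.754). Immediate early genes were positive in 21 of 23 (51.3% of all genes), with a median of 0.30 that fell to 0.001 when only library size was scaled. *fos* was highest in PBS A, at 78665, against 16929 to 40567 in D14, with a log2 fold change of 0.58 that became -0.19 without PBS A.

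Genes named in the text of the study were followed as well, of which 16 were tested and 8 had a negative log2 fold change. *bcam*, a laminin-binding adhesion molecule, had 843, 703 and 456 in PBS A, B and C, against 1229, 1352 and 1190 in D14 (-0.91, adjusted p = 0.215). *sulf1*, which edits heparan sulfate, had 174, 1465 and 1529 in PBS D21, against 2326, 3356 and 2168 in D14 (-1.31, adjusted p = 0.473). *myb*, a transcription factor of proliferating progenitors, had 0, 1 and 0 counts in PBS D21, against 33, 96 and 24 counts in D14. The ratio of D14 over PBS D21 was 94.2, with a 95% counting interval of 16.7 to 3746, and the adjusted p was 0.144. *myb* passed the count filter through the D14 libraries alone, so it entered the test only because its D14 counts were high. *egfr* and *ifi30*, a growth factor receptor and a lysosomal reductase, had 0.27 and -0.07 with overlapping groups. These genes were chosen by the study partly on libraries of this series.

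Between the adjusted p of 0.05 and 0.1 lay 42 further genes, 29 with a positive and 13 with a negative log2 fold change. Besides those given above, the positive ones included *lama2* and *lama4*, laminin chains of muscle, nerve and vessel basement membranes, at 1.96 and 1.81 (adjusted p = 0.0879 and 0.0775). The negative ones included *akap7*, which anchors protein kinase A, with 137 mean normalized counts in PBS D21 and 897 in D14 (-2.71, adjusted p = 0.0524), and *ppm1h*, a phosphatase, at 170 and 1099 (-2.70, adjusted p = 0.0607). These 4 were chosen after their values were seen.

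Of the 13 genes called lower, 10 are annotated as snRNA, the short RNAs that form the core of the spliceosome. Several of the 10 had nearly the same counts within a D14 library, so they may not be separate observations. The remainder were *timm21*, LOC134294081 (protein coding, chromosome 1) and LOC134299010 (lncRNA, chromosome 4). *timm21*, a subunit of the protein import machinery of the inner mitochondrial membrane, had 56.9, 35.2 and 72.0 in PBS A, B and C, against 656, 293 and 633 in D14 (-3.27 ± 0.44, adjusted p = 0.0366). LOC134294081 had 46.8, 111 and 39.3 in PBS D21, against 758, 645 and 660 in D14 (-3.38, adjusted p = 0.0285), and LOC134299010 had 117, 52.8 and 50.7 in PBS D21, against 516, 448 and 660 in D14 (-2.87, adjusted p = 0.0453). *timm21* lies on chromosome 4 at 69572114 to 69589321 and was the only lower call with a name. LOC genes fall outside the naming rule and were chosen after their values were seen.

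**Figure D4:**
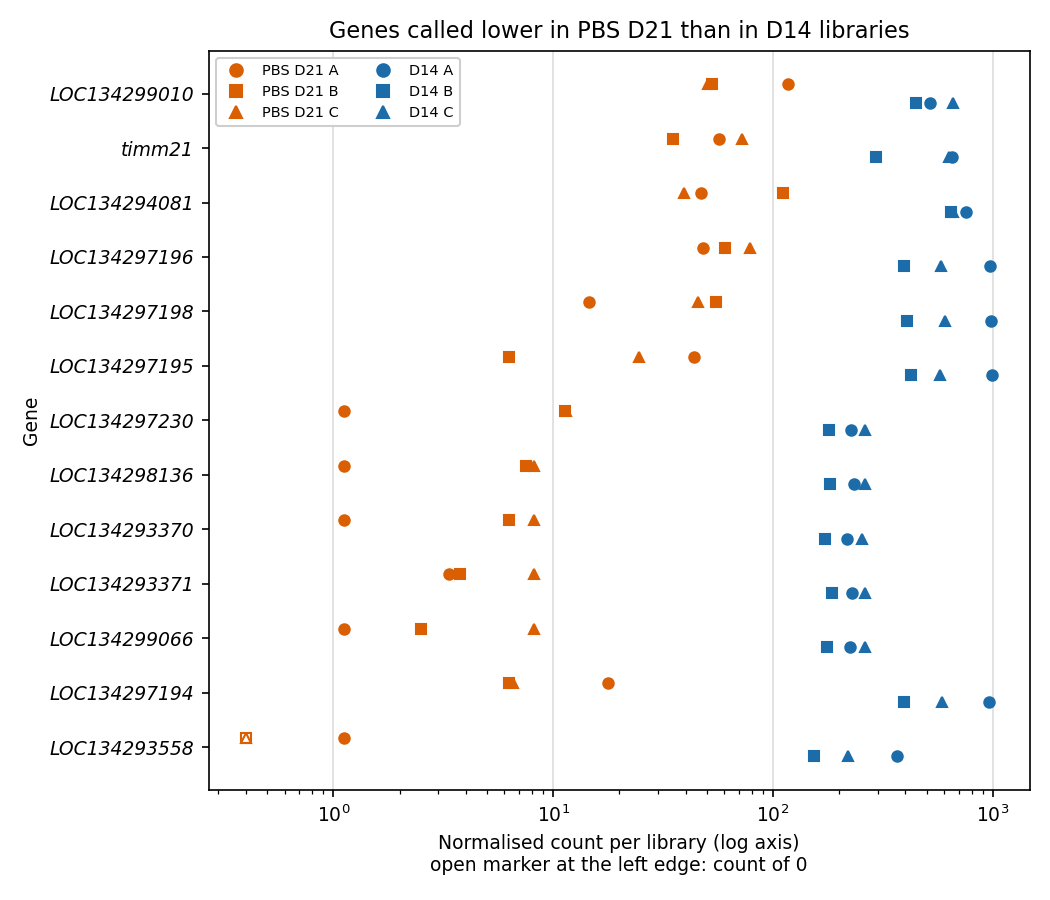
Normalized counts per library (log axis) of the 13 genes called lower, with PBS D21 libraries in orange above D14 libraries in blue for each gene and counts of 0 as open markers at the left edge. Groups do not overlap in any gene, and LOC134293558 has 1 count in PBS A and 0 in PBS B and C.

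Of 121 snRNA genes in the files, 47 were tested, with 17 positive and 30 negative log2 fold changes (median -0.81). In 23 of the 47 every PBS library was below every D14 library (13.4% of all genes). In none was every PBS library above (8.23% of all genes). The 10 called lower among the 47 stand beside 0.0631% of all genes. These shares are a description only, because near-identical copies are counted singly and several genes passed the count filter only with the D14 libraries. The snRNA gene with the largest fall among those called, LOC134293558, had 1, 0 and 0 counts in PBS A, B and C, against 467, 199 and 256 counts in D14. The ratio of D14 over PBS D21 was 568, with a 95% counting interval of 102 to 22452 (adjusted p = 0.0194). LOC134297194 had normalized counts of 17.8, 6.29 and 6.54 in PBS D21, against 961, 396 and 585 in D14 (-5.93 ± 0.56, adjusted p = 0.0194). It is the first of 9 snRNA genes of 164 bases each between 197498867 and 197537351 on chromosome 2, of which 4 were called lower. Copies of this cluster had nearly the same count within a D14 library. D14 A held 1220, 1264, 1230, 1228 and 1239 counts for 5 of them and 466, 486, 474 and 477 for the other 4. In PBS A the same genes held 4 to 43 counts and the copies differed. The assignment of reads to single copies is uncertain. The tested snRNA gene of highest mean, LOC134295731, also of 164 bases but on chromosome 1, was not lower. It had 15685, 3386 and 4683 in PBS A, B and C, against 9327, 2763 and 8042 in D14 (0.24, adjusted p = 0.925). LOC134294246, of 191 bases, had 10979, 216 and 1220 in PBS D21, against 1305, 784 and 810 in D14 (2.10, adjusted p = 0.490). Both overlapped between groups and were chosen after their values were seen. Another 5 called snRNA genes, of 107 bases, lay on chromosomes 2, 3 and 4 and on unplaced sequence. They had 173 to 263 normalized counts in D14 and at most 11.4 in PBS D21, with log2 fold changes from -4.83 to -5.87. In these 5 genes and in LOC134293558 every PBS library was below the minimum of the count filter. These genes passed the filter through the D14 libraries alone, so they entered the test only because their D14 counts were high. LOC134297194, with 16, 5 and 4 counts in PBS A, B and C, and LOC134297195, with 39, 5 and 15, also needed D14 libraries to pass.

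**Figure D5:**
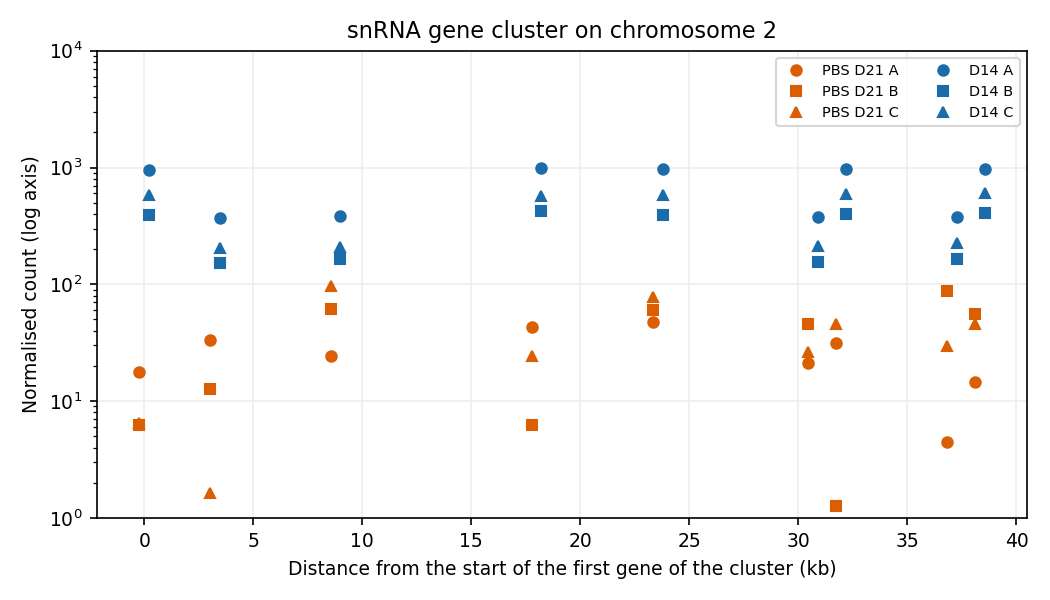
Normalized counts (log axis) of 9 snRNA genes on chromosome 2 against their distance from the start of the first gene in kb, with PBS D21 libraries in orange and D14 libraries in blue, shifted slightly apart. The D14 libraries form 2 tiers along the cluster, and PBS D21 values lie below them in every gene.

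The genes called lower were called on high D14 values, so their levels across the series are a description. In all 13, each D14 library was above every one of the other 12 libraries, those of D7 and D28 included. The share of all genes with this order is not given. *timm21* had 257 to 570 on the scale of 15 libraries at D14, and at most 137 at D7, 61.3 at PBS D21, 194 at ZA D21 and 41.1 at D28. For LOC134297194 the values were 347 to 836 at D14 and at most 35.2 in any other library. Log2 differences from D14 over the 13 genes were -8.78 to -2.88 at PBS D21, -5.82 to -2.42 at ZA D21 and -7.94 to -2.91 at D28 (-10.78 to -2.92 without D28 A), and these contrasts share the D14 libraries. The number of genes detected followed the same division, with 24881 to 24900 in D14 and at most 23061 in any other library. Counts of 0 in all 3 PBS libraries beside at least 10 in each D14 library occurred in 170 genes, and the reverse in none. The part of detection in the genes called lower was not tested.

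By kind of gene, lncRNAs had 1901 negative and 838 positive log2 fold changes among 2739 tested (median -0.49), and 801 had every PBS library below every D14 library, which is 29.2% of them beside 13.4% of all genes. A gene could pass the count filter through the D14 libraries alone. Over all genes tested, 2917 had at least 1 PBS library at 0, against 9 with a D14 library at 0. The part of detection in the lncRNA values was not tested. Protein-coding genes had a median of 0.06. Ribosomal RNA genes, which the library kit depletes, differed from these, with 36 of 37 positive (51.3% of all genes, median 2.18) and none called by edgeR. At an unadjusted p under 0.05, 20 were higher (5.49% of all genes). Every PBS library was above every D14 library in 7 of the 37, a share above the 8.23% of all genes. Some copies held the same count in every library, so the 37 are not separate observations. The share of counts in ribosomal RNA genes was 0.331%, 0.0414% and 0.0389% in PBS A, B and C, against 0.0496%, 0.0272% and 0.0347% in D14, so that PBS A stood above the rest.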

How the data were processed

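RNA of fixed, probe-labelled and sorted cells was extracted with a kit for fixed tissue and sequenced from stranded, rRNA-depleted libraries. The authors deposited whole-number counts per gene from STAR alignments on the build rAnoCar3.1.pri, named as normalized but treated as counts here because library totals differed and no scaling was seen. SAMtools 1.17 and DESeq2 1.45.1 appear in the submitters' processing notes. The counting tool and its strand setting are not given in the sources used here, so overlapping genes and near-identical copies are uncertain. By symbol, 26294 genes matched the RefSeq annotation of the same build and 229 did not.

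Counts were scaled by TMM in edgeR 4.0.16 (R 4.3.3), and a normalized count is a count over the effective library size times 10212349. The PBS D21 and D14 libraries were compared by the quasi-likelihood test without covariates, with Benjamini-Hochberg adjustment over 20589 genes, and an SE is the log2 fold change over the root of F. The study calls the libraries of the injection experiment biological replicates from separate tails, but the labels do not state that libraries are separate animals, so p-values measure the spread between these libraries. Intervals and floors cover counting error only. The members and the gene lists were chosen with earlier results of these data known.

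Genes named without remark are those in the study's text, the 12 largest rises and falls among called genes with a symbol, a mean normalized count of at least 50 and no overlap, and, per list, up to 4 called members or the 2 of highest mean. Alternatives were DESeq2 1.42.0, limma 3.58.1 (voom, and trend with pseudocounts of 1 and 5), 3 other scalings, other filters, thinning to the smallest total, 1 fit over 15 libraries, a block for the library letter and each library left out. Voom with library weights was added after the data were seen. The test was also run on simulated counts with the same spread in both groups. PBS D21 and D14 libraries differed in spread, so that run does not show how the test performs on them. Figures were drawn with matplotlib 3.10.9.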

Additional observations from a re-analysis of the deposited data

How the results depend on the processing

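Against 16 genes higher and 13 lower, DESeq2 called 129 and 257, limma-voom 14 and 1, voom with library weights (added after the data were seen) 47 and 9, and limma with trend 13 and 16 at a pseudocount of 1 and 21 and 25 at 5. A mean count of at least 50 gave 27 and 16, thinning to the smallest total 28 and 18, no filter 18 and 14, the fit over 15 libraries 22 and 13, library size alone 17 and 17, upper-quartile factors 13 and 15, DESeq2's size factors 16 and 13, and the adjusted p alone 16 and 14. Leaving out 1 library gave 0 to 46 higher and 0 to 17 lower. These totals do not hold the same genes. Of the 29 calls, limma-voom kept 12, voom with library weights 18 (2 of the 13 lower) and the fit over 15 libraries 20. Scaling by library size alone moved the median log2 fold change of all genes to -0.20, from 0.02 with TMM, and upper-quartile factors moved it to -0.13, and the medians of the lists for blastema factors, FGF, TGF-beta and BMP, glycolysis, heat shock, nuclear respiration and the study's named genes changed sign under 1 or both.

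The library letters were not taken as pairs, and whether they pair the groups is not settled by these values. Deviations from the group means correlated at 0.14 for PBS A and D14 A, -0.001 for B and 0.06 for C. Between libraries of different letters the correlations ran from -0.17 to 0.11. A fit with the letter as a block called 47 higher and 32 lower, all 29 calls included.

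Among 169 genes followed, 10 changed sign when 1 library was left out and under no other alternative: *adamts9* (log2 fold change -0.33 to 0.23), *c1qa* (-0.62 to 2.41), *cd74* (-0.82 to 2.87), *col17a1* (-0.38 to 0.29), *comp* (-0.33 to 0.090), *fos* (-0.19 to 0.89), *ifi30* (-0.52 to 0.49), *phospho1* (-0.10 to 0.51), *sox9* (-0.26 to 0.15) and *spp1* (-0.70 to 0.14).

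At low counts, a count of 0 over the 3 PBS libraries was read as up to 3 counts, and 2917 tested genes had at least 1 PBS library at 0, against 9 with a D14 library at 0. At an equal total of 6310232 counts, 19717 to 20525 genes were detected in PBS D21 libraries and 24219 to 24356 in D14 libraries.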
